A study of Mus musculus with 9 samples.

Results

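Cytoplasmic ribosomal protein genes encode the protein parts of the ribosomes that translate nuclear-encoded mRNAs. They were taken here as the genes whose annotated symbol is Rpl (large subunit) or Rps (small subunit) followed by a digit, leaving out the Rps6k kinases. Only probe sets annotated with exactly 1 symbol were used, and a gene was represented by its probe set with the highest mean log2 signal over the arrays. Of 48 such symbols, 46 passed the filter on dim probe sets, among 13320 genes in all. These 46 genes were 23 Rpl and 23 Rps genes. The 2 genes that did not pass were Rpl3l, the muscle-enriched relative of Rpl3, and Rps16, each above its array's 40th percentile on 0 of 9 arrays. Just inside the filter, which required 3 arrays, were Rps15a-ps6 with 4 arrays and Rpl39l with 5. The other 44 lay above that percentile on all 9 arrays. A further 109 probe sets carried a ribosomal protein symbol together with other symbols, and no gene is named from them, so well-known members such as Rpl3, Rpl5, Rpl10, Rpl23, Rpl26, Rpl36a and Rps27a were not analysed here.

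The arrays compared 3 groups of 3. DKK1-treated ESC-RPCs are labelled as retinal progenitors and were differentiated in culture from the mouse embryonic stem cell line 46C, itself a gene-targeted derivative of E14Tg2a.IV, and received recombinant DKK1, a secreted Wnt antagonist, at 1 ng/ml for 1 day. Untreated ESC-RPCs came from the same line without DKK1. Both ESC-RPC groups shared 3 days as embryoid bodies with the Nodal receptor inhibitor SB431542, a medium free of retinoic acid, a sort for Sox1 at day 7 (35.8% positive), and later culture with 10 µM DAPT, a Notch pathway inhibitor, and 20 ng/ml bFGF. Primary RPCs were untreated cells of the neural retina, dissociated from C57 mice at postnatal day 1. Parent strain, culture history and group cannot be told apart between ESC-RPCs and primary RPCs, and the ESC-RPCs trace to 1 cell line.

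Ribosomal protein genes are expressed at a high level in nearly every cell, because each ribosome needs 1 copy of almost every protein. Their mRNAs begin with a pyrimidine-rich stretch (the 5-prime terminal oligopyrimidine, or TOP, motif), through which their translation follows growth signals and mTOR. Several have a duplicate gene whose use differs between tissues, and free Rpl5 and Rpl11 are known to bind Mdm2, the ubiquitin ligase of p53.

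The start sites of several of the genes described are shown, and this motif is not evident in all of them. Each sequence runs from 30 bases before to 20 bases after the start of the gene as annotated by RefSeq in GRCm38.p6, and capitals mark the longest run of C and T within 5 bases of that start.
Rpl39l, chr16:10170198-10170247, plus strand: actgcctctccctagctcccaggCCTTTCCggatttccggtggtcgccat
Rpl14, chr9:120571487-120571536, plus strand: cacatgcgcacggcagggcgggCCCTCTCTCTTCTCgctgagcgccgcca
Rpl22l1, chr3:28805478-28805527, plus strand: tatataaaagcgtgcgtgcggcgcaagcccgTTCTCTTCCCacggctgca
Rpl37, chr15:5116583-5116632, plus strand: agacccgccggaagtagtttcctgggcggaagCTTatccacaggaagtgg
Rpl38, chr11:114668550-114668599, plus strand: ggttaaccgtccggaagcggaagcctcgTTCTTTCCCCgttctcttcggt
Rps6, chr4:86857348-86857397, minus strand: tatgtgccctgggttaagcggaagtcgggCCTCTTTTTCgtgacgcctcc
Rps25, chr9:44407684-44407733, plus strand: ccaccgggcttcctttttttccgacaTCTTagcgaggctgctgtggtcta
Rps27, chr3:90213629-90213678, minus strand: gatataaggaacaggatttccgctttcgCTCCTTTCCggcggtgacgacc

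RefSeq promoters were found for 39 of the 46 genes. A run of at least 8 pyrimidines lay within 5 bases of the start in 17 of these 39 (43.6%), against 2962 of 27025 genes (10.96%) and 7 of 69 mitochondrial ribosomal protein genes (10.1%). Among the genes printed, the run was 14 bases in Rpl14, 10 in Rpl22l1, Rpl38 and Rps6, 9 in Rps27, 7 in Rpl39l, 4 in Rps25 and 3 in Rpl37. In Rpl39l and Rps25 it ended before the annotated start, and in Rpl22l1 and Rpl37 it began after that start. In Rps25 a longer run further upstream is not marked. The letters CCGGAAG, which contain the core that ETS family factors bind, occurred on either strand of the 300 bases around the start in 19 of 39 (48.7%), against 9.93% of all genes and 37.7% of the mitochondrial ribosomal protein genes. The letters TATAAA occurred in 12.8% against 15.7% of all genes, and GGGCGG, the core of the Sp1 box, in 56.4% against 38.2%. A match of letters is a description of the window and not evidence of binding.

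Values are MAS5 intensities, and every deposited array had been scaled to a trimmed mean of 500. Log2 differences are given with their SE from a limma fit of all 9 arrays, and a gene was called at a Benjamini-Hochberg adjusted p below 0.05 over all 13320 genes. On the arrays the group was made of bright probe sets: 32 of the 46 genes lay above the 99th percentile of their array on all 9 arrays. The median intensity over the 46 genes was 19609, 20504 and 19918 in DKK1-treated ESC-RPCs, 21620, 23030 and 20653 in untreated ESC-RPCs, and 15557, 16491 and 15636 in primary RPCs. All 6 ESC-RPC arrays were above all 3 primary arrays, and the untreated arrays were above the DKK1-treated arrays. The 99.5th percentile of the whole array, moved with the same groups and was 16911 ± 186 in DKK1-treated ESC-RPCs, 17576 ± 551 in untreated ESC-RPCs and 14911 ± 513 in primary RPCs (SD, n = 3 each). That level is not separate from these genes, since probe sets with a ribosomal protein symbol made up 43.4% to 53.1% of the probe sets above it. Computed without them it was 13273 ± 160 in DKK1-treated ESC-RPCs, 13423 ± 273 in untreated ESC-RPCs and 12329 ± 138 in primary RPCs (SD, n = 3 each). Quantile normalisation, which gives every array the same distribution, removes such a difference at the bright end. Each comparison was therefore made with and without it. In bulk RNA, fewer cells of a type and less RNA per cell cannot be told apart.

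**Figure D1:**
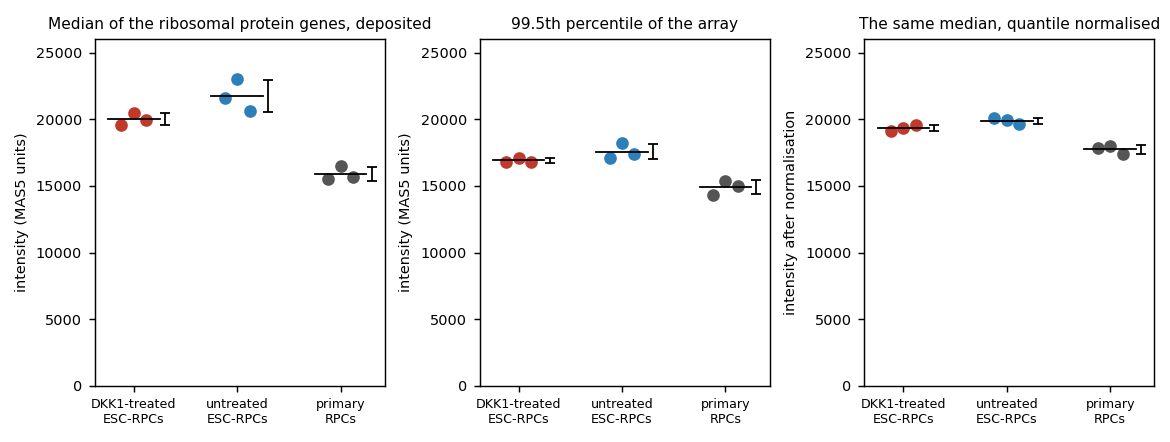
Median intensity of the 46 ribosomal protein genes on each array as deposited (left) and after quantile normalisation (right), with the 99.5th percentile of the array (middle), all in MAS5 units. Points are arrays, horizontal lines are group means and bars are 1 SD (n = 3). The 3 primary arrays are lowest in each panel, and their gap to the ESC-RPC arrays is smaller in the right panel.

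The labels were checked with marker genes. The summed intensity of 6 pluripotency markers was 19251 to 20644 in DKK1-treated ESC-RPCs, 16746 to 20270 in untreated ESC-RPCs and 226 to 309 in primary RPCs. That of 6 mesenchyme markers was 16689 to 20169 in DKK1-treated ESC-RPCs, 16341 to 20424 in untreated ESC-RPCs and 479 to 706 in primary RPCs. Of the 5 retinal progenitor markers tested, all 5 were lower in both ESC-RPC groups than in primary RPCs, and Rax was below the 40th percentile on all DKK1-treated arrays. Of 6 photoreceptor precursor markers, Crx, Nrl and Rcvrn were below that percentile on all 6 ESC-RPC arrays and none was on all primary arrays, where the summed level was 38091 to 52665. Microglial markers summed to 100.2 to 195 in DKK1-treated ESC-RPCs, 131 to 148 in untreated ESC-RPCs and 769 to 1334 in primary RPCs, and both red blood cell markers on the array were below the 40th percentile on all 9 arrays. The 4 neural progenitor markers (Sox1, Sox2, Nes and Pax3) summed to 14892 to 16103 in DKK1-treated ESC-RPCs and 14737 to 16102 in untreated ESC-RPCs. In primary RPCs they summed to 7678 to 11377, with Sox1 and Pax3 below that percentile on all primary arrays. For the ESC-RPC groups the markers go against the label, with retinal progenitor markers low and pluripotency markers high, while neural progenitor markers were present. In primary RPCs retinal progenitor markers summed to 26624 to 31655, beside the photoreceptor precursor and microglial markers given above. The names ESC-RPC and primary RPC are therefore kept here only as labels. ESC-RPCs and primary RPCs differed in all these lists but that of red blood cells, and the part of this in the differences between them below was not tested. Ribosomal protein mRNA per cell in each cell type was not measured.

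In untreated ESC-RPCs most ribosomal protein genes were slightly higher than in primary RPCs. Of the 46 genes, 36 rose and 2 fell, and 8 did not pass the test. Over all 13320 genes, 26.1% were called higher and 26.9% lower. The median log2 difference of the 46 genes was 0.34 (1.27-fold), against -0.0068 over all genes. After quantile normalisation 16 genes were higher and 3 lower, with a median of 0.087, and in that fit 26.1% and 26.2% of all genes were called. The 16 genes were called higher both ways. Another 19 that rose without it did not pass the test with it, and 9 of the 36 then had a lower mean in untreated ESC-RPCs.

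**Figure D2:**
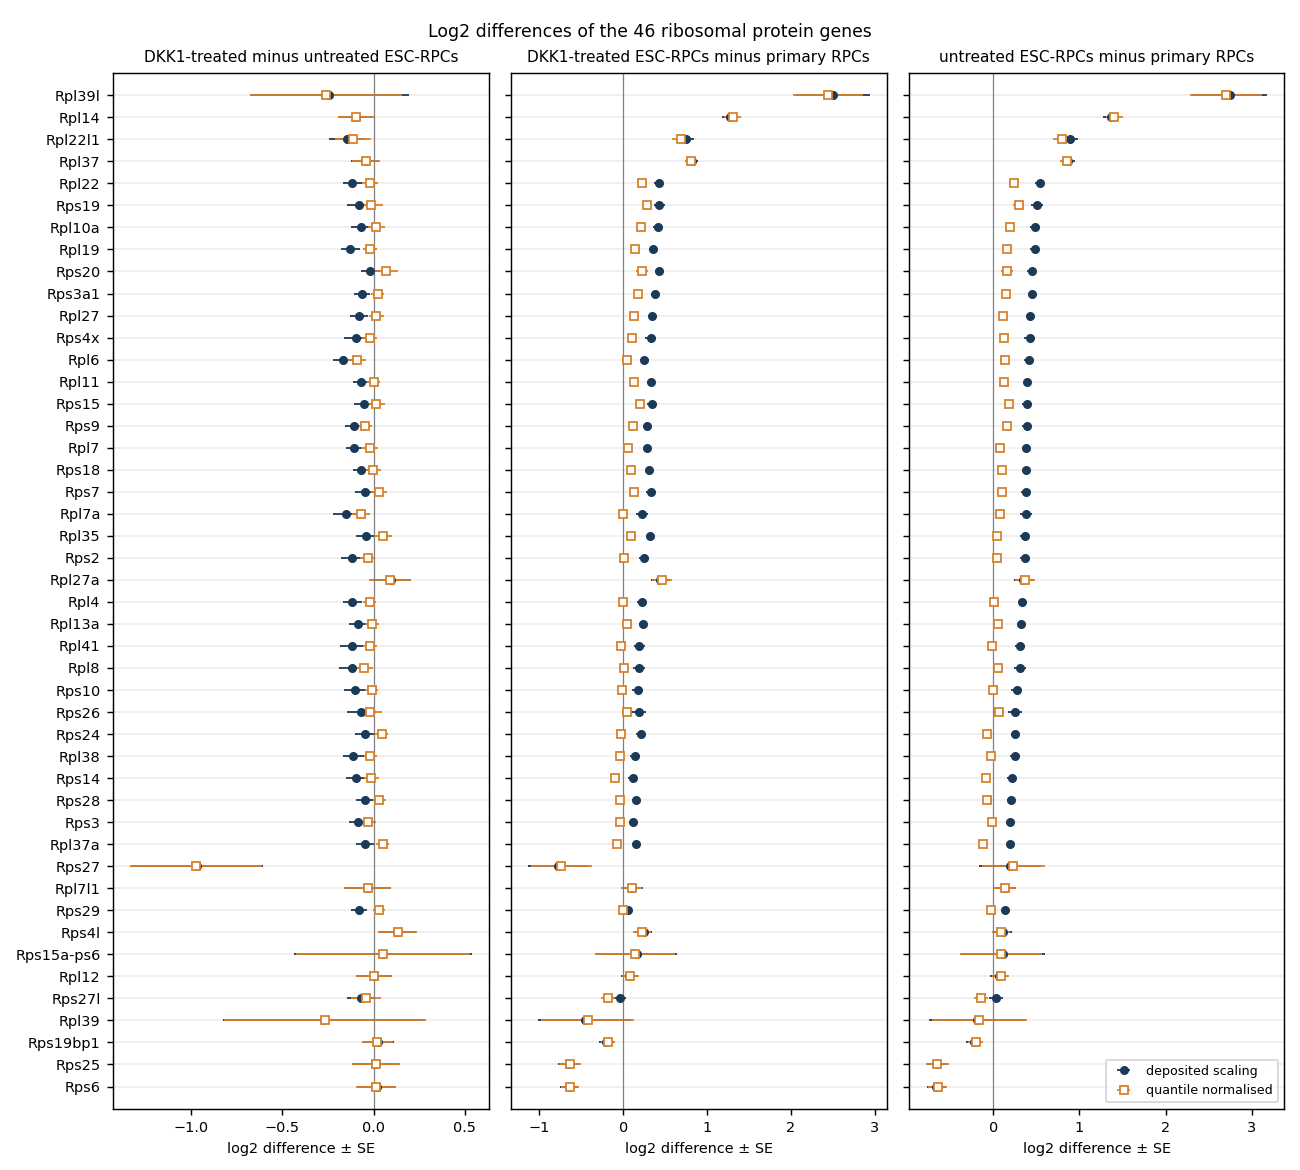
Log2 difference ± SE of each of the 46 genes between DKK1-treated and untreated ESC-RPCs (left), DKK1-treated ESC-RPCs and primary RPCs (middle) and untreated ESC-RPCs and primary RPCs (right), as deposited (filled circles) and after quantile normalisation (open squares). Against primary RPCs most filled circles lie at 0.1 to 0.6 and their squares nearer to 0, whereas for Rpl39l, Rpl14, Rpl22l1, Rpl37, Rps25 and Rps6 circle and square nearly coincide.

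The change under quantile normalisation followed the brightness of the probe set. For the 32 bright genes the log2 difference between untreated ESC-RPCs and primary RPCs moved by -0.32 to -0.17, and the number called higher was 31 without and 11 with the normalisation. With the probe set used for each gene, their differences were alike in size, with a median of 0.37 and a range of 0.03 to 0.54. For the other 14 genes the difference moved by -0.09 to 0.04, and 5 were higher and 2 lower either way. Those 14 held the 4 largest rises and both falls. Without Rpl39l, whose level in primary RPCs is only bounded, their range was -0.66 to 1.37. Rps29, the brightest of the 46, measured 30021 to 31092 in DKK1-treated ESC-RPCs, 31732 to 33513 in untreated ESC-RPCs and 28237 to 30359 in primary RPCs, at or close to the maximum of each array. Quantile normalisation gave Rps29 the same value, 30787, on every array but untreated replicate 2 (28955), because it was the brightest probe set there. Its lost call and its sign after that normalisation therefore follow from its rank and are no measure of its expression. Whether such bright signals still scaled with the amount of RNA was not tested.

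**Figure D3:**
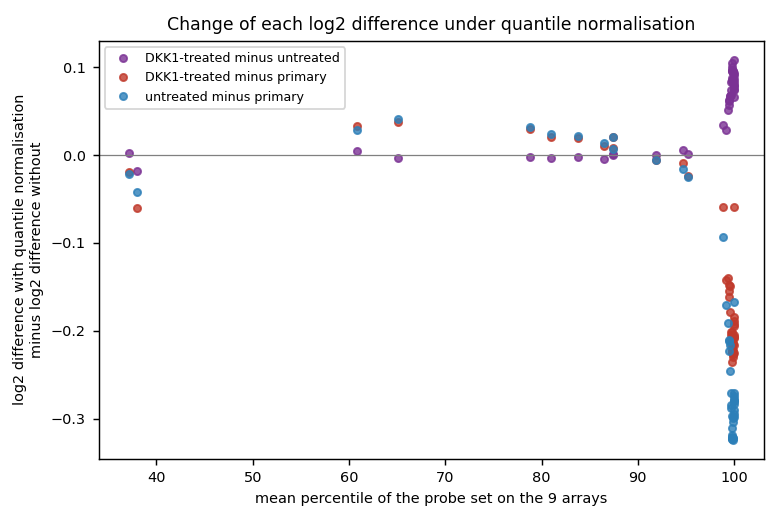
Change of each gene's log2 difference when quantile normalisation is applied (y axis, log2) against the mean percentile of its probe set on the 9 arrays (x axis), for the 3 comparisons. Below the 98th percentile all points lie between -0.1 and 0.05, and the bright genes at the right edge lie at -0.32 to -0.17 for untreated ESC-RPCs minus primary RPCs and at 0.03 to 0.11 for DKK1-treated minus untreated ESC-RPCs.

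Of the duplicate genes, Rpl39l and Rpl22l1 were higher in ESC-RPCs. Rpl39l, the relative of Rpl39 that is known for its use in male germ cells and is also found in embryonic stem cells, measured 103, 43.5 and 65.6 in DKK1-treated ESC-RPCs and 81.5, 55.7 and 107 in untreated ESC-RPCs, against 10.6, 16.4 and 9.29 in primary RPCs. All 6 ESC-RPC arrays were above the 3 primary arrays. All primary arrays, and 1 DKK1-treated array, were below their 40th percentile there, so the primary level is only bounded. The gene passed the filter only through 5 ESC-RPC arrays, which made a difference in this direction part of its being kept, and its place among the genes counted as higher supports nothing. Against that percentile Rpl39l was at least 1.402-fold higher in DKK1-treated ESC-RPCs and at least 1.659-fold higher in untreated ESC-RPCs than in primary RPCs. Rpl39 itself ranged over 110 to 185 in DKK1-treated, 63.0 to 316 in untreated and 134 to 272 in primary cells. Its groups overlapped and no difference of Rpl39 passed the test (log2 -0.46 ± 0.55 and -0.19 ± 0.55 for DKK1-treated and untreated ESC-RPCs against primary RPCs). Rpl22l1, the relative of Rpl22, measured 12538, 12595 and 12298 in DKK1-treated ESC-RPCs and 12934, 15488 and 13147 in untreated ESC-RPCs, against 8686, 6749 and 7062 in primary RPCs. Rpl22, an RNA-binding protein of the large subunit that represses Rpl22l1 in mouse, measured 20979, 21048 and 21617 in DKK1-treated ESC-RPCs, 22231, 24420 and 22362 in untreated ESC-RPCs, and 15123, 16628 and 15746 in primary RPCs. Both were higher in all 6 ESC-RPC arrays than in any primary array. Rpl22l1 rose by 0.89 ± 0.10 in untreated ESC-RPCs (limma adjusted p = 3.19e-05) and Rpl22 by 0.54 ± 0.05 (adjusted p = 1.61e-05). After quantile normalisation the same differences were 0.80 for Rpl22l1 and 0.24 for Rpl22, both called.

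Rps27l, Rps4l and Rpl7l1 were not called between groups in the fit of 9 arrays with the probe set used for each. Rps27l, a p53-inducible relative of Rps27, ranged over 11520 to 13276 in DKK1-treated ESC-RPCs, 12475 to 13514 in untreated ESC-RPCs and 11287 to 13325 in primary RPCs. It was the only one of the 32 bright genes that did not pass the test against primary RPCs in untreated ESC-RPCs (log2 0.03 ± 0.08; limma adjusted p = 0.756), and its 3 probe sets all gave a difference of 0.02 to 0.03. Rps27 measured 124, 230 and 148 in DKK1-treated ESC-RPCs, 175 to 431 in untreated ESC-RPCs and 208 to 352 in primary RPCs, with overlapping groups. Rps4l, annotated by RefSeq as a transcribed pseudogene, ranged over 3678 to 4322 in DKK1-treated, 3404 to 3661 in untreated and 2894 to 3753 in primary cells. Its counterpart Rps4x, the X-linked small-subunit protein, measured 26173, 26887 and 25318 in DKK1-treated ESC-RPCs, 27424, 29751 and 26645 in untreated ESC-RPCs and 19164, 22614 and 20856 in primary RPCs, and rose by 0.42 ± 0.06 in untreated ESC-RPCs (adjusted p = 0.000333, and 0.0248 after quantile normalisation). Rpl7l1, a relative of Rpl7, ranged over 1998 to 2323 in DKK1-treated, 2154 to 2432 in untreated and 1768 to 2514 in primary cells with the probe set used. Another Rpl7l1 probe set was higher in untreated ESC-RPCs, with 485, 442 and 484 against 290, 257 and 237 in primary RPCs (log2 0.85 ± 0.14; limma adjusted p = 0.000623 in a fit of all kept probe sets). Rpl7, with a log2 difference of 0.38 ± 0.05 (adjusted p = 7.04e-05), was not called after quantile normalisation (adjusted p = 0.202).

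Other large-subunit genes among those with the largest rises in untreated ESC-RPCs were Rpl14, Rpl37, Rpl10a and Rpl19. Rpl14 measured 917, 820.0 and 903 in DKK1-treated ESC-RPCs and 952, 908 and 957 in untreated ESC-RPCs, against 354, 363 and 372 in primary RPCs. The groups were well apart, and Rpl14 rose by 1.28 ± 0.09 in DKK1-treated ESC-RPCs (limma adjusted p = 1.85e-06) and by 1.37 ± 0.09 in untreated ESC-RPCs (adjusted p = 1.1e-06). Rpl37 measured 4056, 3884 and 4009 in DKK1-treated ESC-RPCs and 3958, 4072 and 4324 in untreated ESC-RPCs, against 2469, 2197 and 2115 in primary RPCs. It rose by 0.82 ± 0.08 in DKK1-treated ESC-RPCs (adjusted p = 1.13e-05) and by 0.87 ± 0.08 in untreated ESC-RPCs (adjusted p = 7.7e-06). Rpl14 and Rpl37 each have several further probe sets with several symbols (5 and 3), which were not named, so the rise of each gene rests on 1 probe set. Rpl10a, which lies at the L1 stalk where the empty tRNA leaves the ribosome, measured 19777, 22261 and 21935 in DKK1-treated ESC-RPCs, 21486, 23511 and 22011 in untreated ESC-RPCs, and 15625, 16354 and 15947 in primary RPCs, and rose by 0.48 ± 0.06 in untreated ESC-RPCs (0.19 after quantile normalisation, still called). Rpl19, a bridge protein to the small subunit, measured 21731, 22769 and 21261 in DKK1-treated, 23709, 25440 and 22703 in untreated and 16935, 17385 and 17090 in primary cells, and rose by 0.48 ± 0.05 (0.16 after quantile normalisation, still called).

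**Figure D4:**
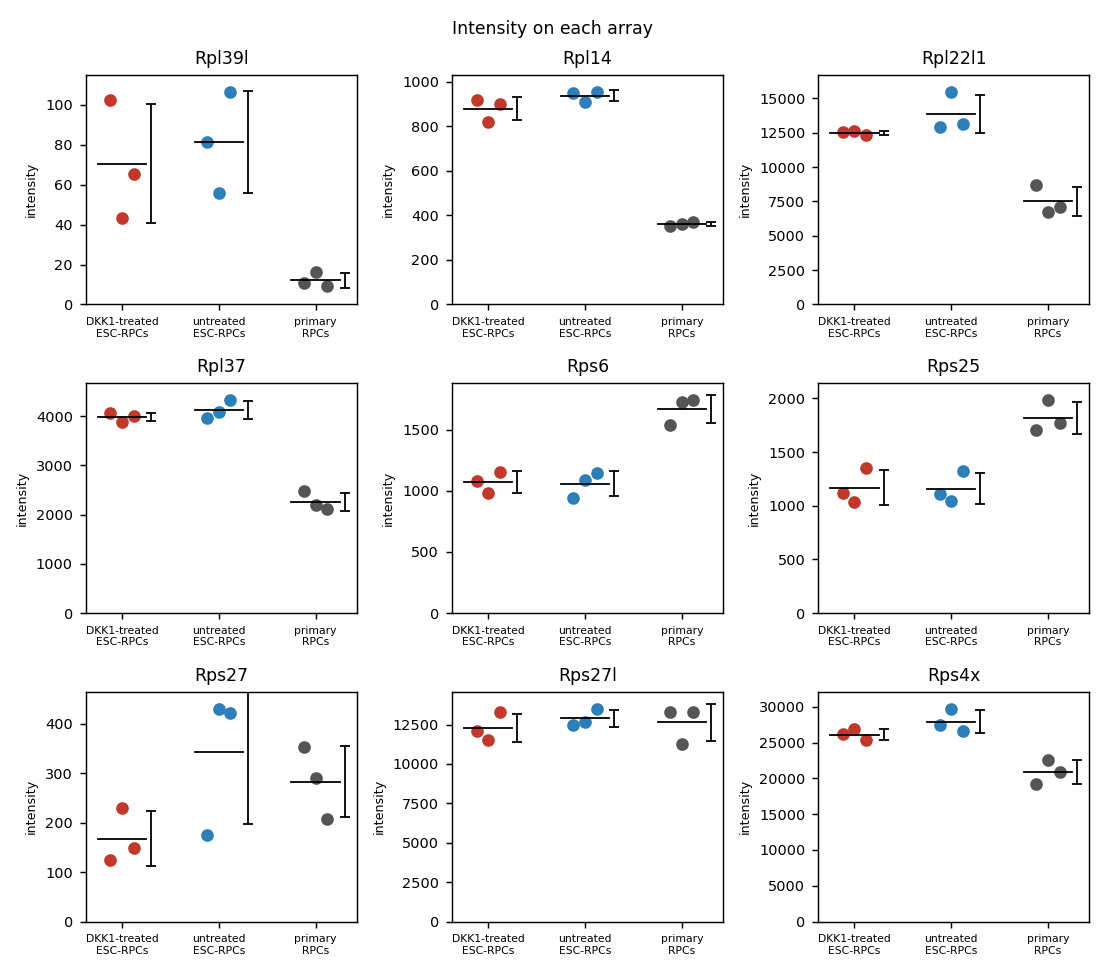
Intensity of 9 ribosomal protein genes on each array (MAS5 units, linear axes from 0). Points are arrays, horizontal lines are group means and bars are 1 SD (n = 3). Rpl39l, Rpl14, Rpl22l1, Rpl37 and Rps4x are higher on all 6 ESC-RPC arrays than on any primary array, Rps6 and Rps25 are lower on all 6, and the groups of Rps27 and Rps27l overlap.

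Small-subunit genes included both called falls. Rps6, the substrate of S6 kinase, measured 1076, 977 and 1155 in DKK1-treated ESC-RPCs and 945, 1084 and 1143 in untreated ESC-RPCs, against 1538, 1722 and 1741 in primary RPCs. No ESC-RPC array reached the lowest primary array, and Rps6 fell by 0.64 ± 0.11 in DKK1-treated (limma adjusted p = 0.000568) and by 0.66 ± 0.11 in untreated ESC-RPCs (adjusted p = 0.000474). A dim probe set of the same gene measured 42.8, 24.5 and 21.9 in DKK1-treated, 31.3, 30.01 and 14.5 in untreated and 76.4, 131 and 93.6 in primary cells. It passed the filter only through the 3 primary arrays, so it adds no support to the fall. Rps6 had 9 further probe sets with several symbols, from which no gene is named. In a fit of all kept probe sets, 105 of that class were tested against primary RPCs. Of these, 86 were called higher and 2 lower in untreated ESC-RPCs, and 80 higher and 1 lower in DKK1-treated ESC-RPCs. Most of the 9 were therefore not called lower, and the fall of Rps6 rests on the probe set used. Rps25, a protein near the head of the small subunit that is needed for entry at several viral internal ribosome entry sites, measured 1118, 1036 and 1351 in DKK1-treated ESC-RPCs and 1110, 1044 and 1320 in untreated ESC-RPCs, against 1703, 1985 and 1768 in primary RPCs. It fell by 0.64 ± 0.13 in DKK1-treated ESC-RPCs (adjusted p = 0.00166) and by 0.66 ± 0.13 in untreated ESC-RPCs (adjusted p = 0.0015). Rps25 had 1 further probe set with several symbols, so this fall also rests on 1 probe set. Both falls were called after quantile normalisation, with the difference of each gene within 0.02 of its value without it.

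Rps19bp1, a regulator of the deacetylase Sirt1 that binds Rps19 and is not itself a ribosomal protein but shares the symbol pattern, measured 1228, 1240 and 1325 in DKK1-treated, 1285, 1237 and 1214 in untreated and 1556, 1344 and 1469 in primary cells. All ESC-RPC arrays lay below the primary arrays, and neither difference passed the test (adjusted p = 0.0751 and 0.0521 for DKK1-treated and untreated ESC-RPCs). Rps15a-ps6, annotated by RefSeq as a transcribed pseudogene and among the dimmest of the 46, ranged over 21.7 to 61.4 in DKK1-treated, 27.5 to 54.1 in untreated and 30.5 to 55.1 in primary cells, and its groups overlapped.

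A list of 8 genes mutated in Diamond-Blackfan anaemia or known to bind Mdm2, not all such genes, was compared in untreated ESC-RPCs and primary RPCs. Of the 8, 5 were measured and all 5 rose before quantile normalisation, as did 36 of the 46 genes, while 26.1% of all genes were called higher. Rps19, the most often mutated of them, measured 18770, 19028 and 19179 in DKK1-treated ESC-RPCs, 19321, 20837 and 20093 in untreated ESC-RPCs and 12910, 15695 and 13766 in primary RPCs, and rose by 0.51 ± 0.07 (limma adjusted p = 0.00012, and 0.00308 after quantile normalisation). Rpl11, an inhibitor of Mdm2, measured 19441, 19960 and 19523 in DKK1-treated, 20612, 21354 and 19863 in untreated and 15489, 15916 and 15526 in primary cells, and rose by 0.40 ± 0.04 (adjusted p = 3.58e-05, and 0.0158 after quantile normalisation). Rps7, Rps24 and Rps26 rose by 0.38 ± 0.06, 0.26 ± 0.05 and 0.26 ± 0.08, and none of these 3 was called after quantile normalisation, where Rps24 was at -0.07. Rpl38, known in mouse for a skeletal patterning mutant, measured 27296, 28083 and 26656 in DKK1-treated, 29497, 31708 and 27592 in untreated and 23742, 26196 and 24436 in primary cells. Its rise of 0.25 ± 0.06 (adjusted p = 0.00389) was at -0.02 after quantile normalisation (adjusted p = 0.614). Rpl37a, chosen after its values were seen, was called in both directions: it rose by 0.20 ± 0.05 without the normalisation (adjusted p = 0.00659) and fell by 0.12 with it (adjusted p = 0.0154).

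Where a gene had several probe sets, they usually had the same sign, but not always a like size. Of 21 genes with more than 1 kept probe set of their own, 17 had a single sign over all their probe sets between untreated ESC-RPCs and primary RPCs. Among genes picked after their values were seen, the log2 differences of the probe sets ran from 0.30 to 1.53 in Rpl13a. They ran from 0.45 to 1.51 in Rps20 and from 0.20 to 0.99 in Rps3, but only from 0.39 to 0.44 in Rps15 and 0.34 to 0.38 in Rps7. In Rpl37a and Rps9, probe sets above the 40th percentile on all 9 arrays were called in opposite directions. The widest gap was in Rps9, a small-subunit protein involved in decoding accuracy, and this gene was chosen after its values were seen. Its probe set with the highest mean measured 17000, 16950 and 16958 in DKK1-treated ESC-RPCs, 18032, 19257 and 17582 in untreated ESC-RPCs and 13630, 13930 and 14377 in primary RPCs. A second probe set of Rps9 measured 557, 518 and 695 in DKK1-treated ESC-RPCs and 673, 403 and 426 in untreated ESC-RPCs, against 11068, 11130 and 12107 in primary RPCs, a log2 difference of -4.55 ± 0.18 in untreated ESC-RPCs (limma adjusted p = 1.28e-08 in the fit of all kept probe sets). The remaining one measured 355 to 426 in untreated ESC-RPCs and 373 to 395 in primary RPCs. The probe sequences were not used here, so what the Rps9 probe sets have in common was not tested, and the call of Rps9 as higher rests on 1 of 3 probe sets. In Rps18 a dim probe set was called lower and passed the filter only through the 3 primary arrays, at 22.2, 10.7 and 22.4 in untreated ESC-RPCs and 48.1, 68.7 and 55.6 in primary RPCs.

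DKK1-treated ESC-RPCs compared with primary RPCs shared these controls, so their values are given side by side and not as a repeat. Of the 46 genes, 31 rose and 2 fell, where 26% and 26.8% of all genes were called higher and lower. The median was 0.24 (1.18-fold). After quantile normalisation 16 were called higher (25.9% of all genes) and 2 lower (26.5%), with a median of 0.070. The largest rises were those of Rpl39l, Rpl14, Rpl37, Rpl22l1, Rpl27a, Rps19, Rps20 and Rpl22. Rpl27a, a large-subunit protein, measured 788, 971 and 910 in DKK1-treated ESC-RPCs, against 617, 650.1 and 691 in primary RPCs, and rose by 0.44 ± 0.11 (limma adjusted p = 0.0067). In untreated ESC-RPCs it measured 764, 851 and 880 and rose by 0.35 ± 0.11 (adjusted p = 0.0224). That call was lost without untreated replicate 2 (adjusted p = 0.0703), untreated replicate 3 (adjusted p = 0.0803) or primary replicate 1 (adjusted p = 0.0598). Rps20, a protein of the small-subunit head, measured 29112, 26895 and 28839 in DKK1-treated ESC-RPCs and 19807, 21330 and 21836 in primary RPCs, and rose by 0.43 ± 0.05 (adjusted p = 7.41e-05, and 0.0183 after quantile normalisation). Rps27 had a log2 difference of -0.77 ± 0.36 that did not pass the test (adjusted p = 0.0932).

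Between DKK1-treated and untreated ESC-RPCs no ribosomal protein gene was called in the limma fit of 9 arrays, as was the case for all 13320 genes (0%). At an unadjusted p under 0.05 there were 6 of the 46 genes and 308 of all genes (2.31%). The direction was mostly down: 39 of the 46 genes, and all 32 bright ones, had a lower mean after DKK1, while 49.5% of all genes had a higher one. The median log2 difference was -0.08, which is 0.946-fold, and -0.0018 over all genes. It was -0.05 without untreated replicate 2, the array with the highest median of these genes. In 10 genes all DKK1-treated arrays lay below all untreated arrays (6.73% of all genes), namely Rpl13a, Rpl22, Rpl22l1, Rpl6, Rpl7, Rps15, Rps18, Rps19, Rps29 and Rps9. In 1 gene, Rps4l, they lay above (5.24% of all genes).

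With quantile normalisation this difference was smaller. The median was -0.013, the number with a higher mean in DKK1-treated ESC-RPCs was 17 (48.7% of all genes) instead of 7, and the groups were apart in 3 genes downward (6.44% of all genes) and 2 upward (5.06%). The 99.5th percentile of the arrays, in which these genes take part, moved with the same groups, as given above. Rpl6 had the smallest unadjusted p of the 46 genes. It measured 19439, 19328 and 18814 in DKK1-treated ESC-RPCs and 21754, 22617 and 20274 in untreated ESC-RPCs, a log2 difference of -0.17 ± 0.06. Rpl7a measured 22472, 24011 and 21785 in DKK1-treated ESC-RPCs against 24666, 28203 and 23227 in untreated ESC-RPCs, with overlap, a difference of -0.15 ± 0.07. Rpl22l1, Rpl19 and Rpl8 were at -0.15 ± 0.10, -0.13 ± 0.05 and -0.12 ± 0.07. Without quantile normalisation the lowest differences were those of Rps27 (-0.97 ± 0.36), Rpl39 (-0.27 ± 0.55) and Rpl39l (-0.24 ± 0.44), all with overlapping groups. In the other direction Rps4l was at 0.13 ± 0.10 and Rpl27a at 0.09 ± 0.11, and no other gene exceeded 0.06.

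The replicate numbers were taken to pair the arrays of these 2 groups because of their values, as the labels state no pairing. The block was thus chosen from the same values that its fit tests. The fit of the 6 ESC-RPC arrays with the replicate number as a block called 65 of all genes, with 0.27% of all genes called lower. At an unadjusted p under 0.05 it had 27 of the 46 genes, against 15% of all genes, and after quantile normalisation 6 of the 46 genes, against 14.3% of all genes. Among the 46 ribosomal protein genes it called 1 lower, Rps27, a zinc finger protein of the small subunit. Rps27 measured 124, 230 and 148 in DKK1-treated ESC-RPCs and 175, 431 and 421 in untreated ESC-RPCs, lower in each of the 3 pairs although the groups overlap. Its log2 difference was -0.97, with limma adjusted p = 0.04999 in the blocked fit, 0.9997 in the fit of 9 arrays and 0.0649 in the blocked fit after quantile normalisation. All 3 pairs were lower after DKK1 in 29 of the 46 genes (19% of all genes), and in 10 after quantile normalisation (18.9%). The medians of the 46 genes in pairs 1, 2 and 3 were -0.06, -0.13 and -0.05.

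Genes of related function were compared in untreated ESC-RPCs and primary RPCs, where 26.1% of all genes were called higher and 26.9% lower. Of the mitochondrial ribosomal proteins, which serve the separate ribosome of mitochondria, 16 of 76 rose and 18 fell, with a median of -0.02. Those with the smallest p were Mrpl45 (log2 0.76 ± 0.07), Mrpl12 (0.65 ± 0.07) and Mrpl15 (0.70 ± 0.09). Of 4 measured cytoplasmic ribosomal proteins whose symbols fall outside the rule, Rpsa, Fau and Rplp2 rose by 0.42 ± 0.05, 0.34 ± 0.07 and 0.25 ± 0.05, and Rplp0, a stalk protein, was at -0.04 ± 0.06. After quantile normalisation 1 of these 4 was called higher and 1 lower, and their median was 0.04 instead of 0.29. Of 17 elongation and initiation factors and other genes with TOP mRNAs, 13 rose and 1 fell, and 10 rose and 1 fell after quantile normalisation. Eif4b, an initiation factor, rose by 0.86 ± 0.06, Npm1, a nucleolar chaperone, by 0.77 ± 0.06 and Eef2, the translocation factor, by 0.62 ± 0.05. Of 34 ribosome assembly and nucleolar factors 12 rose and 6 fell. The nucleolar protein Ncl rose by 0.42 ± 0.05, while Rrs1 and Gar1 fell by 0.90 ± 0.12 and 0.75 ± 0.10.

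Of 12 genes of the RNA polymerase I machinery, which makes ribosomal RNA, 4 rose and 2 fell. Polr1c rose by 0.68 ± 0.08 and Polr1d by 0.44 ± 0.05, both subunits shared with RNA polymerase III, and Znrd1 fell by 0.97 ± 0.09. Of 11 regulators of ribosomal protein synthesis, 2 rose and 1 fell: Larp1, which binds TOP mRNAs, rose by 0.69 ± 0.08, Myc rose by 1.36 ± 0.18 and Rheb, an activator of mTOR, fell by 0.38 ± 0.08. Of 11 p53 response genes, 3 rose and 3 fell. Cdkn1a, the cell cycle inhibitor, fell by 1.47 ± 0.13, Zmat3 rose by 1.39 ± 0.14 and Ccng1 rose by 1.16 ± 0.14. Between DKK1-treated and untreated ESC-RPCs 0 genes of these lists were called in the limma fit of 9 arrays. There 61 of the 76 mitochondrial ribosomal protein genes and 16 of the 17 TOP genes had a lower mean after DKK1. Their medians were -0.05 and -0.07, and -0.05 and -0.03 after quantile normalisation. Over all genes 49.5% had a higher mean after DKK1, and 48.7% after quantile normalisation, with medians of -0.0018 and -0.0039.

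**Figure D5:**
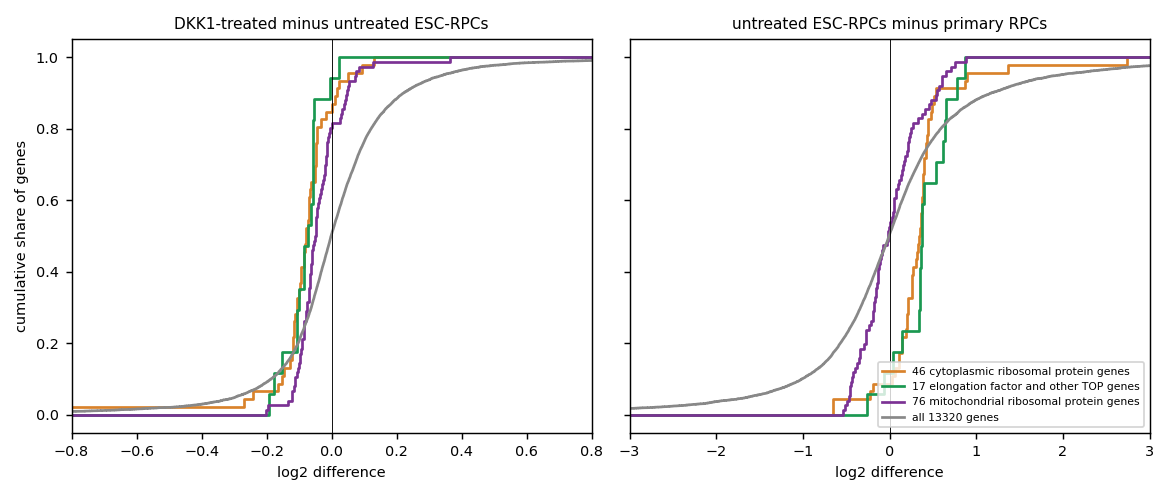
Cumulative share of genes by log2 difference for DKK1-treated minus untreated ESC-RPCs (left) and untreated ESC-RPCs minus primary RPCs (right), for the 46 cytoplasmic ribosomal protein genes, the 17 TOP genes, the 76 mitochondrial ribosomal protein genes and all 13320 genes, as deposited. In the right panel the curves of the cytoplasmic ribosomal protein and TOP genes cross the middle at 0.34 and 0.37, and those of the mitochondrial ribosomal protein genes and all genes at -0.02 and -0.01.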

How the data were processed

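Biotin-labelled cRNA of 9 mouse samples, 3 per group, was hybridised to Affymetrix 3-prime arrays. The deposited values are intensity values made by the authors with MAS5, per the submitters' processing notes; no version or genome build is given in the sources used here. The trimmed mean (2% at either end) of every deposited array was 500. Of 45101 probe sets, 64 controls were set aside, 932 matched several genes and 9160 had no gene in the platform annotation. Log2 was taken, and probe sets above their array's 40th percentile on at least 3 arrays were kept (29052, of which 24773 had 1 symbol), which gave 13320 genes. limma 3.58.1 (R 4.3.3) gave each gene a linear model over the 9 arrays, with 1 mean per group, an intensity trend, two-sided tests and Benjamini-Hochberg adjustment. The same was done after quantile normalisation of all non-control probe sets. Arrays give no read depth, and their number limits the precision. The labels call the replicates biological without naming separate cultures or animals.

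The members and gene lists were chosen with earlier results of these data known. Named genes were, in each comparison, the 8 largest called rises and falls (filled with uncalled ones, given as values), the duplicate genes with their counterparts, genes of Diamond-Blackfan anaemia or Mdm2 binding, Rps6, Rpl38, Rps19bp1, the brightest and dimmest, and up to 3 per list by p. If a whole group was below the 40th percentile, its fold is a bound against that percentile.

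Replicate numbers are shared by the groups. Deviations from group means correlated at 0.123 to 0.318 between same-numbered DKK1-treated and untreated arrays and at -0.234 to 0.0681 between others, so these arrays were treated as paired by their values; the labels do not state a pairing. With primary arrays the same-number values were -0.0433 to -2.36e-06. Within groups the arrays correlated at 0.964 to 0.984, and no 2 were identical. The fit was tested on simulated data with 200 of 13320 genes changed. For untreated ESC-RPCs against primary RPCs it recovered 28.8%, 74.6% and 97.0% of log2 changes of 0.5, 1 and 2, with 7 false calls among 141. In the data many more genes were called there, 26.1% higher and 26.9% lower, so these shares do not carry over to it. Alternatives were other scalings, filters, probe set choices, a pseudocount of 32, no trend, fewer arrays, a replicate block and leaving out each array.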

Additional observations from a re-analysis of the deposited data

How the results depend on the processing

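Of 2693 values of single genes under the alternatives, 72 kept their sign but lost a call, and 23 gained a call. Another 23 values called as reported changed sign, and most of these also lost their call. Still called, in the other direction, were only Rpl37a in untreated ESC-RPCs with quantile normalisation and Rps9 with the mean of its probe sets. The other 2575 kept their side of the threshold and, where called, their direction. A further 73 values of genes not called as reported also changed sign. Quantile normalisation moved most: 16 genes called higher in untreated ESC-RPCs and 16 in DKK1-treated ESC-RPCs against primary RPCs, with medians of 0.087 and 0.070, and a median of -0.013 for DKK1-treated against untreated ESC-RPCs. The number with a higher mean was then 31 instead of 40 in DKK1-treated ESC-RPCs and 32 instead of 42 in untreated ESC-RPCs, against primary RPCs. Among genes called without it, it turned the sign, in DKK1-treated ESC-RPCs against primary RPCs, of Rpl37a (-0.072), Rpl4 (-0.0057), Rpl41 (-0.031), Rps10 (-0.017), Rps24 (-0.023) and Rps28 (-0.038), and in untreated ESC-RPCs of Rpl37a (-0.12), Rpl38 (-0.023), Rpl41 (-0.010), Rps10 (-0.0066), Rps14 (-0.084), Rps24 (-0.068), Rps28 (-0.069), Rps29 (-0.030) and Rps3 (-0.011). The turn of Rps29 follows from its rank on 1 array, as given above. With the mean of each gene's probe sets, 4 genes were lower in untreated ESC-RPCs than in primary RPCs. Rps9 (-1.34), Rps18 (-0.14), Rpl41 (-0.11) and Rpl37a (-0.0030) then turned in DKK1-treated ESC-RPCs, and Rps9 (-1.38) and Rps18 (-0.11) in untreated ESC-RPCs; the averaging itself brings in the probe sets that move the other way. Without _x_at probe sets, a class that can match other transcripts, Rpl41 was at -0.34 in DKK1-treated and -0.35 in untreated ESC-RPCs against primary RPCs. Setting arrays to one median raised the median in untreated ESC-RPCs to 0.41. The cause of the other moves was not tested.

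The replicate block on the 6 ESC-RPC arrays, an alternative to the unpaired fit, called 1 gene lower (Rps27) between DKK1-treated and untreated ESC-RPCs. With the replicate block and quantile normalisation together, added after seeing the data, the median was -0.013 and 0 genes were called. The block on all 9 arrays changed no count of calls by more than 1.5 times. Leaving out 1 array at a time gave medians of -0.09 to -0.05 (DKK1-treated against untreated ESC-RPCs), 0.21 to 0.28 (DKK1-treated ESC-RPCs against primary RPCs) and 0.31 to 0.38 (untreated ESC-RPCs against primary RPCs). It gave 0, 26 to 35, and 33 to 36 genes higher and 0, 2 to 3, and 2 to 3 lower in the same comparisons. Signal over background limited Rpl39l and Rps15a-ps6.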

Other observations

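Probe sets that carry a ribosomal protein symbol together with other symbols were counted as 1 class, without naming genes, in a fit of all 29052 kept probe sets that was chosen after seeing the data. Of 105 such probe sets, 86 were higher and 2 lower in untreated ESC-RPCs than in primary RPCs, with a median log2 difference of 0.37. Of the 96 probe sets with 1 ribosomal protein symbol, 72 were higher and 6 lower, with a median of 0.33, and over all kept probe sets 6795 were higher and 7003 lower, with a median of -0.03. In DKK1-treated ESC-RPCs against primary RPCs the counts were 80 higher and 1 lower of the 105, against 6782 higher and 7041 lower of all 29052. Between DKK1-treated and untreated ESC-RPCs 0 were called, and 20 of the 105 had a higher mean after DKK1, against 14526 of all 29052. All probe sets with a ribosomal protein symbol together held 9.01 ± 0.12% of the summed signal in DKK1-treated ESC-RPCs, 9.45 ± 0.33% in untreated ESC-RPCs and 7.70 ± 0.27% in primary RPCs (SD, n = 3 each).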
